A study of Mus musculus with 47 samples.

Results

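The comparison set 9 mouse T-cell lymphoblastic tumours of *Cdkn2a* knockout mice with retroviral insertional mutagenesis against 9 tumours in which Tal1 was overexpressed or E2A was lost. These 18 arrays, chosen by their titles, are part of 47 in the series, each measuring transcripts of 1 tumour on an Affymetrix mouse array. The second arm held 2 Tal1 transgenic, 3 Tal1-LMO2 double transgenic, 2 E2A knockout and 2 rag E2A knockout tumours. The Tal1 transgenic and Tal1-LMO2 tumours (n = 5) are called Tal1-driven here and both E2A backgrounds (n = 4) E2A-deficient. All 18 carry the label of a TLX1 negative lymphoma, and their RNA came from cells taken out of the tumour. Mouse strain, age, the promoter of each transgene, the virus used and which *Rag* gene was disrupted are not named in those labels. Nothing in the labels says that the tumours came from separate mice, so the p-values measure only the spread between samples.

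*Cdkn2a* encodes a pair of tumour suppressor proteins that restrain cell cycle entry and promote the death of oncogene-bearing cells. In retroviral insertional mutagenesis, a virus integrates into the genome and tumours grow out where it has switched on an oncogene or broken a suppressor. E2A, encoded by *Tcf3*, is an E protein: it binds E-box motifs and directs early lymphoid development, and Tal1, alone or in a complex with LMO proteins, binds E proteins and blocks them. Notch1 is a surface receptor whose cleaved intracellular part joins the DNA-binding protein RBPJ to switch on T-cell genes. It is needed for T-lineage commitment and is often activated in T-cell leukaemia. The study's labels ask how tumours of different predisposing lesions differ, and this pair of arms was chosen with their *Notch1* levels known.

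The values are MAS5 signals, linear summaries of probe brightness in arbitrary units, which allow a gene to be compared between arrays but not with another gene. Array medians lay between 67.6 and 96.5 in the *Cdkn2a* knockout arm (77.3 ± 8.43, mean ± SD, n = 9) and between 49.5 and 61.4 in the other (56.6 ± 3.83, n = 9), with no overlap (difference 20.7, exact permutation p = 4.11e-05, two-sided). The log2 3'/5' signal ratio of the *Gapdh* control probe sets, which goes up as RNA is degraded, was −0.348 ± 0.0783 against −0.0972 ± 0.185 (difference −0.251, exact permutation p = 0.000165, two-sided, n = 9 each). That of *Actb* was 0.142 ± 0.0393 against 0.361 ± 0.295 (difference −0.219, exact permutation p = 0.000288, two-sided), with Tal1 transgenic tumour 1 highest at 1.13. After Benjamini-Hochberg adjustment over these 3 measures, the highest p was 0.000288. Correlations of log2 values were 0.889 to 0.983 within the *Cdkn2a* knockout arm, 0.936 to 0.968 within the other and 0.873 to 0.942 between them. The labels name no scan or extraction batch, so a batch that coincided with the *Cdkn2a* knockout arm cannot be told apart from it. *Cdkn2a* knockout tumours 7 and 8 stood apart from the other 7 in many of the genes below, and values without them are given where they matter.

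Tested with limma on log2(signal + 15.9), 3015 of 7392 genes (40.8%) differed between the arms at an adjusted p under 0.05. Of these, 1621 (21.9% of tested genes) were higher in *Cdkn2a* knockout tumours and 1394 (18.9%) were lower. A change of at least 2-fold was reached by 756 called genes (10.2%), 530 of them higher (7.17%) and 226 lower (3.06%). The signals of the arms did not overlap for 481 genes (6.51%). Here and below, overlap is judged on the probe set that stood for the gene, and its other probe sets may overlap. Differences below are in log2 units, *Cdkn2a* knockout minus Tal1 and E2A tumours, ± SE, with adjusted p from that limma fit, and "higher" and "lower" without a value describe genes past the threshold. Where a gene lies near the floor in 1 arm, the size of its difference depends on the added 15.9. A gene entered the test if 4 arrays exceeded their median, so a gene that entered through 1 arm alone was bound to differ. Such genes below include *Lysmd2*, *Sh3bgrl2*, *Rai14* and *Oasl1* among the higher and *Gdpd3*, *Scara3*, *Aldh1b1* and *Itgae* among the lower ones. Their values are a description. Quantile normalization, which removes the difference in array medians, called 2844 genes (38.5%), 1211 higher (16.4%) and 1633 lower (22.1%), and so turned the balance of directions from 53.8% to 42.6% higher.

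The genes that define the backgrounds were read first. *Tcf3* read 146, 275, 276 and 227 in the 4 E2A-deficient tumours, 443 to 1010 in the Tal1-driven ones and 339 to 679 in the *Cdkn2a* knockout ones. It was higher in *Cdkn2a* knockout than in E2A-deficient tumours by 1.26 ± 0.20 (adjusted p = 0.000288) and differed from Tal1-driven ones by −0.25 ± 0.19 (adjusted p = 0.335). The loss of *Tcf3* signal thus followed the E2A labels, with no overlap with either of the other groups. The *Cdkn2a* probe set (12.7 to 37.3 against 2.36 to 44.1) and the *Tal1* probe set (10.9 to 21.7 against 3.98 to 19.1) lay below the array medians in both arms. *Lmo2*, the partner of Tal1, read 52.6 to 195 in the *Cdkn2a* knockout arm and only 13.6, 17.3 and 19.8 in the 3 Tal1-LMO2 tumours. Probe sets outside a deleted part, or against mouse sequence where a transgene may come from another species, check nothing. *Rag1* (2067 and 1609) and *Rag2* (131 and 148) both exceeded the array median in the 2 rag E2A knockout tumours, so neither signal followed the rag label.

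Of the Notch receptors, *Notch1* and *Notch3* were both lower in *Cdkn2a* knockout tumours, and these levels are a description, since the arms were picked with them in view. *Notch1* read 103, 42.1, 123, 84.6, 122, 62.6, 1537, 141 and 246 in *Cdkn2a* knockout tumours 1 to 9. It read 2188 and 2464 in the Tal1 transgenic, 3508, 3803 and 2662 in the Tal1-LMO2, 3740 and 4086 in the E2A knockout and 6484 and 5073 in the rag E2A knockout tumours. No tumour of the first arm reached the second, and tumour 7 alone came near it. The fitted difference was −4.50 ± 0.44, a 22.6-fold lower level, and −4.96 without tumours 7 and 8. A second *Notch1* probe set ran from 17.5 to 931 against 920 to 2443 (difference −3.63).

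*Notch3*, a related receptor that Notch1 itself switches on, was tighter. Its signals were 80.6 to 150 in the *Cdkn2a* knockout arm, tumour 7 included at 109, and 725 to 1520 in the other. The difference of −3.01 ± 0.15 (8.08-fold) had a smaller error than any other of the 12 largest falls. *Notch2* did not pass the threshold (0.28 ± 0.21, adjusted p = 0.288).

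In the rest of the pathway, few genes passed the threshold. Of the 28 genes listed as receptors, ligands and processing factors, 18 were tested, of which 4 were lower (22.2%, against 18.9% of all genes) and 1 was higher (5.56%, against 21.9%). Beside both receptors, the lower genes were *Rfng*, a fringe glycosyltransferase that modifies Notch (−0.51 ± 0.12, adjusted p = 0.00186, other probe set of opposite sign), and *Aph1a*, a subunit of the gamma-secretase that cleaves Notch (−0.56 ± 0.19, adjusted p = 0.0243). *Fbxw7*, the ubiquitin ligase subunit that marks the cleaved receptor for destruction, was higher (0.45 ± 0.15, adjusted p = 0.0187), though its other probe set had the opposite sign and the call was lost after quantile normalization. *Rbpj* read 0.16 ± 0.13 (adjusted p = 0.328).

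Among the genes that Notch is known to switch on, more were lower than higher in the *Cdkn2a* knockout arm. Of 26 listed targets, 20 were tested, of which 10 were lower (50%, against 18.9% of all tested genes) and 3 were higher, with a median difference of −0.99 against 0.03 over all tested genes. The list includes *Notch1* and *Notch3*, and its choice was not independent of these data. *Dtx1*, which encodes the Notch regulator Deltex, read 920 and 961 in the Tal1 transgenic tumours and 2363 to 6649 in the other 7. The *Cdkn2a* knockout tumours read 47.04 to 133, except tumour 7 at 2175. The difference was −4.12 ± 0.53 (adjusted p = 1.39e-05), and −4.69 without tumours 7 and 8. Tumour 7 is therefore in the range of the second arm for *Dtx1* while its *Notch3* is not.

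*Il2ra*, the alpha chain of the interleukin-2 receptor and a marker of immature double negative thymocytes, was 2.90 to 98.8 against 78.4 to 1284 (−3.94 ± 0.49, adjusted p = 1.06e-05). Only *Cdkn2a* knockout tumour 2 overlapped the second arm, where the lowest value came from Tal1 transgenic tumour 1. *Hes1*, a repressor that is a classical Notch target, read 24.1 to 132 against 15.3 to 459 (−1.89 ± 0.44, adjusted p = 0.00204). Here the overlap came from the Tal1 transgenic tumours, at 15.3 and 106. *Nrarp*, a feedback inhibitor of Notch, read 47.8 to 354 against 143 to 1516 (−1.75 ± 0.43, adjusted p = 0.00324). It was 710 or more in all 4 E2A-deficient tumours and 543 or less in the Tal1-driven ones, but the test of the difference between those groups gave an adjusted p of 0.29. *Trib2*, a pseudokinase of leukaemia, was lower by a similar amount (−1.78 ± 0.39, adjusted p = 0.00137), as was *Igf1r*, a growth factor receptor, by less (−1.18 ± 0.32, adjusted p = 0.00598).

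*Ptcra* encodes the pre-T-cell receptor alpha chain, which pairs with a new beta chain at beta selection. Its signals in *Cdkn2a* knockout tumours 1 to 9 were 5.14, 4.40, 26.0, 34.9, 39.5, 20.5, 486, 10.4 and 26.2. The second arm ran from 25.6 in Tal1-LMO2 tumour 2 to 2148 in rag E2A knockout tumour 2, with a median of 323. Except for tumour 7, every *Cdkn2a* knockout tumour lay below 8 of the 9 others. The difference was −2.68 ± 0.68 (adjusted p = 0.00396), and −3.05 without tumours 7 and 8.

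Promoter letters were read for the lower Notch targets because RBPJ binds DNA around the core TGGGAA and E proteins around CANNTG. RefSeq promoters (build GRCm38.p6, the 250 bases before the annotated start) were found for 9 of the 10. Both strands were searched, the E-box pattern reads the same on each, and a match of one motif may overlap a match of the other. The core was present in 1 of the 9 (11.1%), *Ptcra*, against 21.5% of 27025 promoters and 20% of the 6075 tested genes with a promoter. An E-box was present in 3 of the 9 (33.3%), against 66% of all and 55.2% of tested genes. *Ptcra* holds 2 cores, which start 84 and 32 bases before the start site, and 2 E-boxes. Its window is shown with those of *Dtx1* and *Notch3*, lower targets whose windows hold neither motif; each is written 5′ to 3′ on the strand of the gene, with RBPJ cores in capitals.
Ptcra, chr17:46763713-46763962, minus strand: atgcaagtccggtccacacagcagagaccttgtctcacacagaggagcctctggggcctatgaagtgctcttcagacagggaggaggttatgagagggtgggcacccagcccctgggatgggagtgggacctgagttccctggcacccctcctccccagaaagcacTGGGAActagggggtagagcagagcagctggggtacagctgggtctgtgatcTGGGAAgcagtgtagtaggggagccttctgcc
Dtx1, chr5:120711670-120711919, minus strand: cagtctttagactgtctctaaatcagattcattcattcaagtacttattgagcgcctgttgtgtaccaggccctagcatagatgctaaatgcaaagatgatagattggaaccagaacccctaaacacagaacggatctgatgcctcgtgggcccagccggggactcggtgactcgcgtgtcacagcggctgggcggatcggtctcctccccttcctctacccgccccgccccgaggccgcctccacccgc
Notch3, chr17:32166891-32167140, minus strand: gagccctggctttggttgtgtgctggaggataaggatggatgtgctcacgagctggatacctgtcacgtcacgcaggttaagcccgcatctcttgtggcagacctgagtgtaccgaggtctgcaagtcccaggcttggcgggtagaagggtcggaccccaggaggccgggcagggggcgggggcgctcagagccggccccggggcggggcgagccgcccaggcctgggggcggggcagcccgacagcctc
A match is only a match of letters, and these short windows leave out enhancers, so nothing follows about binding.

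*Myc* ran against the other targets. This growth-promoting transcription factor, which Notch1 activates in T-cell leukaemia, read 2450, 2590, 2914, 2256, 3116, 1931, 2078, 1546 and 1648 in *Cdkn2a* knockout tumours 1 to 9. The second arm lay between 628 and 1415. The arms did not overlap, with *Myc* higher by 1.22 ± 0.18 (2.33-fold, adjusted p = 5.14e-05). *Lgmn*, a lysosomal protease that macrophages also express, was higher by 1.38 ± 0.35 (adjusted p = 0.00413), beside macrophage markers that were higher too. *Tasp1*, a protease that activates KMT2A proteins, was the third higher target (0.38 ± 0.13, adjusted p = 0.0261).

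**Figure D1:**
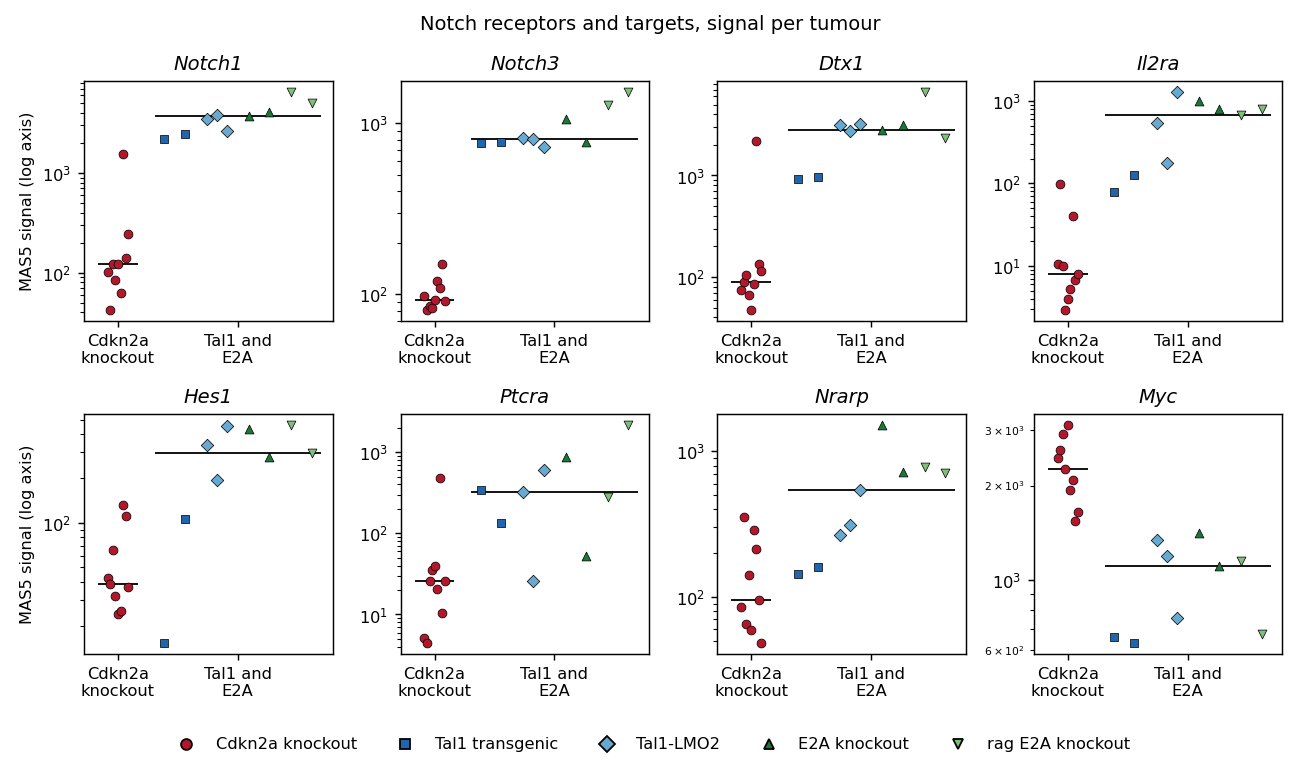
MAS5 signal (log axis) of 8 Notch receptor and target genes in each tumour, one point per array, with *Cdkn2a* knockout tumours in red and the 4 other backgrounds by symbol; horizontal lines are arm medians. *Notch1* and *Notch3* do not overlap between the arms, *Cdkn2a* knockout tumour 7 is the high red point in *Notch1* (1537), *Dtx1* (2175) and *Ptcra* (486), and *Myc* lies the other way.

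Several genes of immature, double negative thymocytes were lower and *Cd4* was higher in the *Cdkn2a* knockout arm. Of 23 genes listed for the double negative stage and beta selection, 18 were tested, 9 were lower (50%, against 18.9% of all genes) and 9 were not called, with a median difference of −0.82. After quantile normalization, 7 were lower (against 22.1% of all genes). Of the 9 lower genes, 5 are also on the Notch target list. They include *Notch3* and *Notch1*, whose level was known when the arms were picked, so the count is partly a product of that choice. *Dntt*, which encodes the polymerase TdT that adds bases at receptor gene joints, read 8.79 to 2261 against 1089 to 5718 (−3.45 ± 0.72, adjusted p = 0.000881). Tumours 7 (1916) and 9 (2261) overlapped the second arm, and tumour 8 was lowest. *Cd24a*, a surface marker of immature thymocytes, was 242 in tumour 2 and 1208 to 4166 in the other 8, against 2690 to 9836 (−1.21 ± 0.41, adjusted p = 0.0234).

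Double positive thymocytes carry both coreceptors, CD4 and CD8. *Cd4* read 1066, 598, 596, 913, 786, 1218, 376, 713 and 385 in *Cdkn2a* knockout tumours 1 to 9 and 6.71 to 346 in the second arm. The arms did not overlap (2.19 ± 0.44, 4.56-fold, adjusted p = 0.000699), and Tal1-LMO2 tumour 2 was lowest. *Cd8a* and *Cd8b1* did not pass the threshold (−0.06 ± 0.66, adjusted p = 0.95, and 0.07 ± 0.49, adjusted p = 0.924). *Cdkn2a* knockout tumour 8 read 19.6 for *Cd8a* and 93.0 for *Cd8b1*, while the other 8 read 1195 to 3833 for *Cd8a*, inside or above the 461 to 2602 of the second arm. So *Cd4* and *Cd8a* both exceeded the array median in all *Cdkn2a* knockout tumours but tumour 8. The same held in every second-arm tumour but Tal1-LMO2 tumour 2, with *Cd4* in Tal1-LMO2 tumour 3 at the margin (49.6, median 49.5). Bulk signals do not show whether the same cells carried both.

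Over the 20 tested genes of the double positive list, 5 were higher (25%) and 3 lower (15%), close to the shares of all genes. *Cd5*, a brake on receptor signalling, was higher by 1.78 ± 0.53 (adjusted p = 0.0113), and *Plxnd1*, a semaphorin receptor of thymocytes, by 1.38 ± 0.38 (adjusted p = 0.00682). *Bcl6*, a repressor, was higher by little (0.66 ± 0.26, adjusted p = 0.046), lost in 21 of 36 alternative analyses. *Cd1d1*, which presents lipids to NKT cells, was lower (−0.83 ± 0.17, adjusted p = 0.000744), as was *Arpp21* (−1.61 ± 0.50, adjusted p = 0.0136). The recombinase gene *Rag1* was not called (−1.31 ± 0.57, adjusted p = 0.0732): tumour 8 read 12.8, the other 8 read 708 to 2402, and the second arm 1471 to 2604. Without tumours 7 and 8 it was lower by a smaller amount that passed (−0.87, adjusted p = 0.00121). *Rag2* was not called either (−0.40 ± 0.46, adjusted p = 0.504).

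Among 16 tested maturation and homing genes, 2 were higher (12.5%) and 1 was lower (6.25%), fewer than the 21.9% and 18.9% of all genes. *S1pr1*, which lets mature T cells leave the thymus, was higher by 0.90 ± 0.25 (adjusted p = 0.00639). *Zbtb7b*, which encodes the CD4-lineage factor ThPOK, was higher by 1.18 ± 0.43 (adjusted p = 0.034), a call lost in 17 of 35 alternatives; tumour 8 had the highest signal, 272. *Itgae*, the integrin chain CD103, was lower (−1.89 ± 0.55, adjusted p = 0.00962).

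Of 24 tested T-cell receptor signalling genes, 7 were lower (29.2%, against 18.9% of all genes), 2 were higher (8.33%, against 21.9%) and 15 were not called. *Lat*, the membrane adaptor on which receptor signals assemble, read 607 to 1780 against 2811 to 4394 with no overlap (−1.62 ± 0.17, adjusted p = 2.48e-06). The receptor chains *Cd3e* (−1.26 ± 0.17, adjusted p = 2.29e-05), *Cd3g* (−0.99 ± 0.20, adjusted p = 0.000739) and *Cd3d* (−1.03 ± 0.32, adjusted p = 0.0148) were lower together. In these 3 genes tumour 8 was the highest *Cdkn2a* knockout tumour, at 1850, 2678 and 4172. *Sla2*, an adaptor that dampens receptor signals, was lower (−1.69 ± 0.47, adjusted p = 0.00697), and so was the diacylglycerol kinase *Dgkz* (−0.62 ± 0.16, adjusted p = 0.00453, other probe set −0.10). *Rasgrp1*, which links the receptor to Ras and is a known target of retroviral insertion in T-cell tumours, went the other way (1.96 ± 0.55, adjusted p = 0.00793). It read 99.2 to 867 in the *Cdkn2a* knockout arm and 4.03 to 154 in 8 of the others, with Tal1-LMO2 tumour 1 at 1052.

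Of 20 tested transcription factors of the T lineage, 6 were lower (30%) and 5 higher (25%), not far from the 18.9% and 21.9% of all genes. *Bcl11b*, which seals T-cell commitment, read 544, 549, 459, 467, 678, 654, 727, 226 and 905 in the *Cdkn2a* knockout tumours against 1300 to 2963. It did not overlap (−1.91 ± 0.21, 3.77-fold, adjusted p = 2.47e-06). *Lef1*, a nuclear partner of beta-catenin, read 177 to 468 against 675 to 2163 in 8 of the others, with Tal1 transgenic tumour 1 at 286 (−1.79 ± 0.29, adjusted p = 0.000105). *Gata3* (−1.06 ± 0.31, adjusted p = 0.00947), the cofactor *Zfpm1* (−0.71 ± 0.16, adjusted p = 0.00161) and *Runx1* (−1.15 ± 0.25, adjusted p = 0.00126, with 2 of its 4 other probe sets opposite in sign) were lower as well.

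The higher factors began with *Gfi1*, a repressor and a frequent retroviral insertion site. It read 857 to 1630 in 8 *Cdkn2a* knockout tumours and 354 in tumour 7, against 281 to 600 (1.28 ± 0.23, adjusted p = 0.000254). Tumour 7, the one with the highest *Notch1* signal of its arm, thus had a *Gfi1* level inside the range of the second arm. *Tox*, needed for CD4 T-cell development, was higher by 1.42 ± 0.41 (adjusted p = 0.00927), with the second arm spread from 11.6 to 286. *Zbtb1* (0.87 ± 0.16, adjusted p = 0.000248) and *Ets1* (0.67 ± 0.17, adjusted p = 0.00487, 1 of its 3 other probe sets opposite in sign) were also higher. *Ikzf1*, which encodes Ikaros, was higher by 1.23 ± 0.42 (adjusted p = 0.0236).

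**Figure D2:**
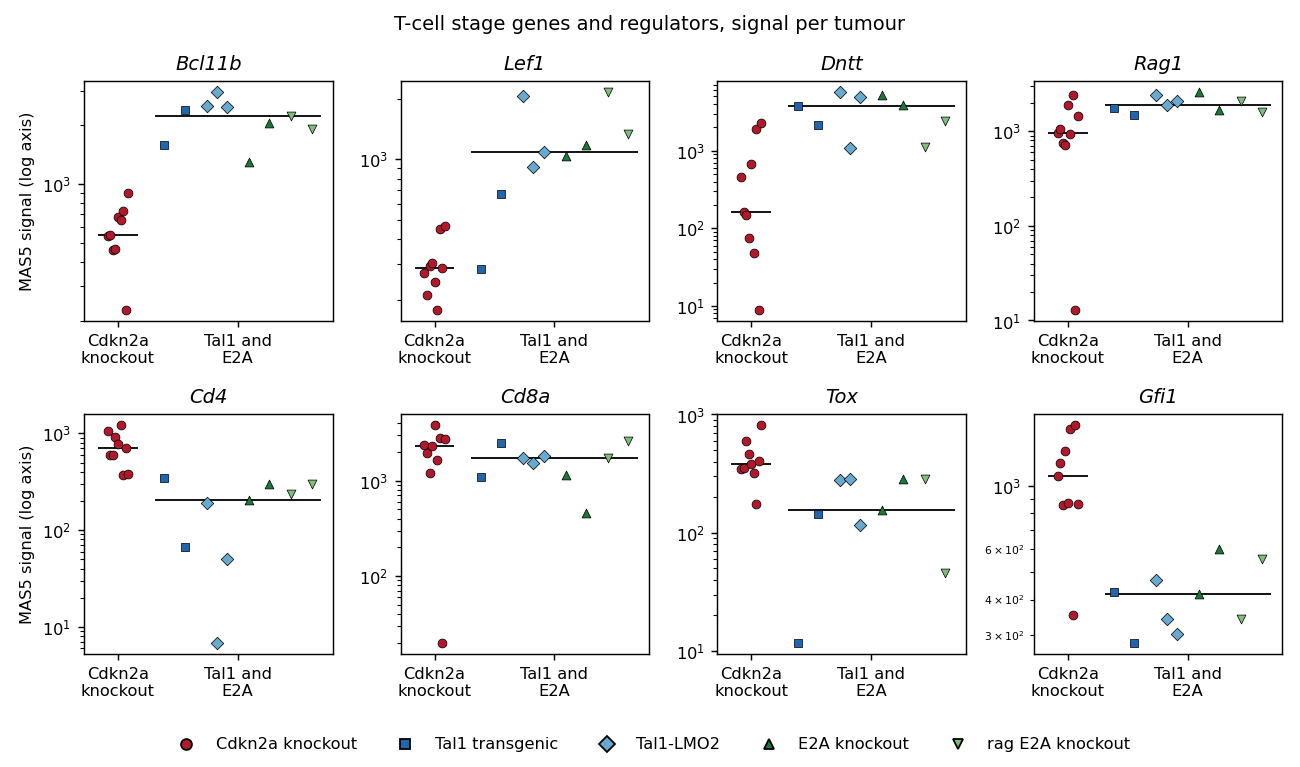
MAS5 signal (log axis) of 8 T-cell stage genes and regulators in each tumour, one point per array; horizontal lines are arm medians. *Bcl11b* and *Cd4* do not overlap between the arms and differ in opposite directions; *Cdkn2a* knockout tumour 8 is the low red point in *Rag1* (12.8) and *Cd8a* (19.6), and tumour 7 the low one in *Gfi1* (354).

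Of 16 tested E proteins, their inhibitors and members of the Tal1 complex, 3 were higher (18.8%) and 4 lower (25%), near the 21.9% and 18.9% of all genes. *Lyl1*, a close relative of *Tal1*, read 73.6 to 220 against 26.0 to 58.7 with no overlap (1.32 ± 0.19, adjusted p = 2.93e-05), and *Lmo2* was higher by 1.49 ± 0.23 (adjusted p = 7.31e-05). Blood vessel and early blood cells express both genes, and endothelial markers were also higher. *Id3*, which encodes an inhibitor of E proteins, was higher by 1.68 ± 0.63 (adjusted p = 0.0396), a call lost in 20 of 36 alternatives; E2A knockout tumour 1 read 764, within the *Cdkn2a* knockout range of 64.4 to 874. The complex members *Ssbp3* (−1.47 ± 0.25, adjusted p = 0.000136) and *Cbfa2t3* (−1.28 ± 0.21, adjusted p = 0.000103, no overlap, 2 of its 3 other probe sets opposite in sign) were lower. Of 21 listed early progenitor genes, 7 were tested and 6 were higher (85.7%, against 21.9% of all genes). Among them were *Cebpa* (1.54 ± 0.26, adjusted p = 0.000161), a myeloid factor, and *Cd34* (1.53 ± 0.28, adjusted p = 0.000325), which vessels also express. In the second arm, both exceeded the array median only in Tal1 transgenic tumour 1 (59.1 and 53.5, median 53.2). *Lmo2* did so only in Tal1 transgenic tumour 2 and *Lyl1* only in rag E2A knockout tumour 2. These genes entered the test almost wholly through the *Cdkn2a* knockout arm, so the filter largely set their direction and this share. *Tcf12*, the E protein HEB, was lower by less (−0.51 ± 0.17, adjusted p = 0.021, other probe set of opposite sign).

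Set against each kind of second-arm tumour, the same *Cdkn2a* knockout arrays gave 2371 called genes (32.1%) with the Tal1-driven and 2206 (29.8%) with the E2A-deficient tumours. Both comparisons share those arrays, so their likeness is no result. A direct test of the difference between the effects called 4 genes (0.0541%) by limma; the count was 14 without Tal1-LMO2 tumour 3, 8 without Tal1 transgenic tumour 1 and 7 without E2A knockout tumour 1. It was 100 without all Tal1-LMO2 tumours, 10 with 1 mean per background over all 47 arrays, and 0 by limma without the E2A knockout tumours, where 614 genes had an unadjusted p under 0.05. *Aldh1b1*, a mitochondrial aldehyde dehydrogenase, was 1.21 to 22.96 in *Cdkn2a* knockout tumours, 20.2 to 772 in Tal1-driven and 815 to 2133 in E2A-deficient ones. Its effects were −2.15 ± 0.53 against Tal1-driven and −5.69 ± 0.57 against E2A-deficient tumours, and Tal1-driven minus E2A-deficient was −3.54 ± 0.64 (adjusted p = 0.0446), a call lost in 21 of 34 alternatives (adjusted p 0.000148 to 0.371). *Tcf3* differed by the same measure (1.504 ± 0.23, adjusted p = 0.0093), a call lost in 3 of 35 alternatives, among them without the E2A knockout (0.0827) and without the rag E2A knockout tumours (0.0523). The others were *Bex3* (1.22 ± 0.18, adjusted p = 0.0093) and the ficolin gene *Fcna* (2.97 ± 0.50, adjusted p = 0.0261), both named after their values were seen; their calls were lost in 3 and 10 of 35 alternatives.

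The cell cycle genes that act beside *Cdkn2a* were next. Of 19 tested inhibitors, D cyclins and their partners, 7 were higher (36.8%, against 21.9% of all genes) and 3 lower (15.8%, against 18.9%). *Cdk4*, a kinase that a product of *Cdkn2a* inhibits, was lower (−0.55 ± 0.12, adjusted p = 0.00089), with 890 in tumour 8 and 1353 to 1751 in the other 8 against 1654 to 2444. Its partner cyclin gene *Ccnd1* (−0.81 ± 0.25, adjusted p = 0.0155) and *E2f1* (−0.77 ± 0.17, adjusted p = 0.00159, other probe set −0.08), which drives replication genes, were lower too. *Rb1*, the brake that CDK4 releases, was higher (0.68 ± 0.15, adjusted p = 0.00174), as were its relative *Rbl1* (0.48 ± 0.15, adjusted p = 0.0155), *E2f3* (0.44 ± 0.13, adjusted p = 0.00824) and cyclin E, *Ccne1* (1.08 ± 0.31, adjusted p = 0.00966). *Mdm4* read 313 to 526 against 143 to 283 with no overlap (0.75 ± 0.14, adjusted p = 0.000305).

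Of 40 tested DNA replication genes, 15 were lower (37.5%, against 18.9% of all genes) and 1 was higher. Of 36 tested mitotic spindle genes, 2 were lower (5.56%) and 7 were higher (19.4%, near the 21.9% of all genes), and the difference between these shares was not tested. The flap nuclease *Fen1* read 724 to 1430 against 1638 to 3893 (−1.15 ± 0.18, adjusted p = 7.49e-05), and the helicase subunit *Mcm7* 2793 to 5363 against 5947 to 8617 (−0.74 ± 0.10, adjusted p = 3.09e-05). The ribonucleotide reductase subunit *Rrm1* (−0.91 ± 0.17, adjusted p = 0.000278) and the single-strand binding subunit *Rpa2* (−0.65 ± 0.10, adjusted p = 8.24e-05) were lower too. In the probe sets used, the arms overlapped for none of these 4 genes. Their other probe sets all overlapped, with smaller differences: −0.53 for *Fen1*, −0.11, −0.10 and −0.64 for *Mcm7*, −0.31 for *Rrm1* and −0.17 for *Rpa2*. On the mitotic side, the kinetochore gene *Nuf2* (0.85 ± 0.17, adjusted p = 0.00075) and the cohesin genes *Rad21* (0.60 ± 0.15, adjusted p = 0.00285) and *Stag1* (0.48 ± 0.13, adjusted p = 0.00582) were higher. Tumour 8 was the lowest *Cdkn2a* knockout tumour for *Mcm7* (2793) and *Nuf2* (175).

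Several metabolic and ribosomal lists held more lower than higher genes as deposited, but for ribosomal proteins and for MYC targets the balance turned with the scaling. In glycolysis, 10 of 21 tested genes were lower (47.6%, against 18.9% of all genes), 2 were higher and 9 were not called; after quantile normalization 9 were lower and 1 higher, where 22.1% and 16.4% of all genes were. Pyruvate kinase *Pkm* read 1861 to 2898 against 3281 to 7305 (−1.09 ± 0.13, adjusted p = 9.33e-06) and *Pgk1* 4330 to 5855 against 7821 to 13416 (−0.89 ± 0.11, adjusted p = 9.33e-06). Of 33 tested oxidative phosphorylation genes, 23 were lower (69.7%) and 10 not called as deposited, and 12 were lower after quantile normalization; *Cox7a2* was −0.81 ± 0.12 (adjusted p = 5.53e-05). Of 22 ribosomal protein genes, 19 were lower (86.4%) and 1 higher as deposited, but 1 was lower and 4 were higher after quantile normalization. *Rpl4*, for example, went from −0.63 ± 0.09 (adjusted p = 2.74e-05) to 0.15 (adjusted p = 0.0182). Of 36 tested MYC targets and ribosome biogenesis genes, 3 were higher (8.33%) and 9 lower (25%) as deposited, and 7 higher and 4 lower after quantile normalization; *Ddx21*, a nucleolar helicase, was higher with no overlap (0.53 ± 0.09, adjusted p = 0.00015).

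Known targets of retroviral insertion were called at shares near those of all genes. Of 59 listed, 39 were tested, 11 were higher (28.2%, against 21.9% of all) and 8 lower (20.5%, against 18.9%), with a median of 0.20. Beside *Myc*, *Gfi1*, *Rasgrp1* and *Lmo2*, the higher ones included *Tpd52*, which read 146 to 224 in 8 tumours and 413 in tumour 8 against 38.5 to 110 with no overlap (1.43 ± 0.17, adjusted p = 8.65e-06), and *Evi2a* (0.87 ± 0.17, adjusted p = 0.000426). The phosphatase gene *Ptpn1* was lower (−0.65 ± 0.12, adjusted p = 0.000392). No file used here holds insertion sites, so a signal cannot be tied to an insertion in its tumour.

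**Figure D3:**
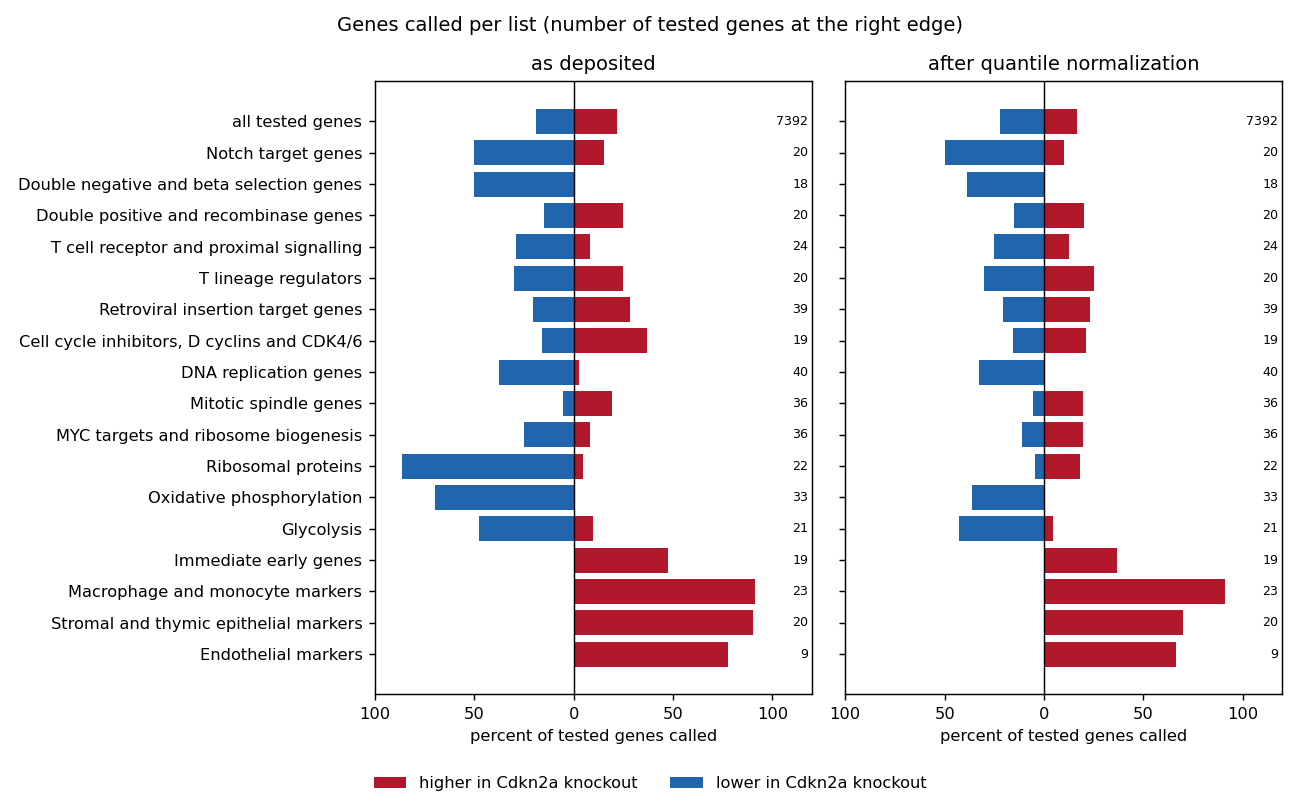
Share of tested genes called higher (red, right) or lower (blue, left) in *Cdkn2a* knockout tumours for 17 gene lists and all tested genes, as deposited (left panel) and after quantile normalization (right panel); numbers at the edge are tested genes. Notch target and double negative genes have more lower than higher calls and macrophage and stromal markers are mostly higher in both panels, while ribosomal proteins go from 19 of 22 lower to 1 of 22.

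Markers of macrophages, stroma and endothelium were higher in the *Cdkn2a* knockout arm, and in bulk tumours more cells of a type and more RNA per cell cannot be told apart. Of 23 tested macrophage and monocyte markers, 21 were higher (91.3%, against 21.9% of all genes) and 2 not called (median 1.64), and of 20 stromal and thymic epithelial markers, 18 were higher (90%) and 2 not called (median 1.95). Without the Tal1 transgenic tumours the counts were 23 and 18, where 20.8% of all tested genes were higher. Without *Cdkn2a* knockout tumours 7 and 8 they were 22 and 18, where 22% were. The macrophage gene *Adgre1*, which encodes F4/80, read 151 to 318 against 43.4 to 125 with no overlap (1.44 ± 0.19, adjusted p = 1.86e-05), and the phagocyte pore gene *Mpeg1* was higher by 1.95 ± 0.30 (adjusted p = 6.46e-05). Among matrix genes, fibronectin, *Fn1*, read 253 to 576 against 49.5 to 248 (1.73 ± 0.25, adjusted p = 3.91e-05), again with no overlap.

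The summed signal of the macrophage markers was 17127 to 31039 in the *Cdkn2a* knockout tumours and 3046 to 12294 in 7 of the others, but 16510 and 21477 in the Tal1 transgenic tumours. The stromal sum was 5558 to 12251 against 584 to 1533 in 6 of the others, 6581 and 5322 in the Tal1 transgenic tumours and 4849 in rag E2A knockout tumour 1. In both sums the Tal1 transgenic tumours were the nearest to the *Cdkn2a* knockout arm. The endothelial sum over 9 genes did not overlap, at 1062 to 1890 against 595 to 1001. Of the 9, 7 were higher (77.8%, against 21.9% of all genes), among them the junction gene *Esam* (1.66 ± 0.24, adjusted p = 3.29e-05). The sum of 6 tested T-cell markers ran the other way, at 5718 to 12468 against 12175 to 30130, with *Thy1* lower (−1.08 ± 0.19, adjusted p = 0.000236). The bright *Thy1* and *Cd3* genes weigh most in this sum. *Cd5*, also a member, was higher (1.78 ± 0.53, adjusted p = 0.0113).

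The labelled cell type was present throughout: *Cd3e* exceeded the array median in all 18 tumours. *Csf1r*, a macrophage receptor, did so in 18 of 18 as well, and *Col1a1*, a fibroblast collagen, in 9 of 9 *Cdkn2a* knockout and 3 of 9 other tumours. The B-cell gene *Pax5*, the erythroid gene *Klf1*, the NK-cell genes *Ncr1* and *Klrd1* and the thymic epithelial gene *Foxn1* exceeded it in 0 of 18. The B-cell genes *Ms4a1* and *Cd79a* each did so in 2 of 9 *Cdkn2a* knockout and 0 of 9 other tumours. For the neutrophil gene *S100a8* it was 2 of 9 and 5 of 9, and for the dendritic cell gene *Itgax* 1 of 9 and 0 of 9. Of 10 tested B-cell markers, 6 were higher (60%, against 21.9% of all genes). After quantile normalization 1 was higher (against 16.4% of all genes), and without tumours 7 and 8, 2 were (against 22%). The summed B-cell signals of tumours 7 and 8 were 9362 and 10793 against 894 to 4734 in the other 7. Few markers of the remaining cell types were tested. Higher were 1 of 4 neutrophil, 1 of 3 NK and cytotoxic and 2 of 5 dendritic cell markers, against 21.9% of all genes. Of the erythroid markers, 1 of 4 was lower, against 18.9% of all genes. These lists are too short to set apart from those shares. Their median differences, in that order, were −0.28, −0.48, −0.18 and −0.29. The sums overlapped: 152 to 469 against 71 to 522 for neutrophils, 319 to 913 against 397 to 782 for dendritic cells and 1825 to 4330 against 1707 to 4656 for erythroid cells. The NK and cytotoxic sum was 106 to 5294 (median 618) in the *Cdkn2a* knockout arm against 406 to 9754 (median 7036). The lower T-cell sum stands beside the lower receptor and Notch genes, but the receptor chains *Cd3d*, *Cd3e* and *Cd3g* are themselves in it. The higher macrophage and stromal sums stand beside the higher matrix and progenitor genes, and the stromal list itself holds matrix genes such as *Col4a1*. With shared genes, the likeness is no separate result. The part of these cell types in those results was not tested.

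**Figure D4:**
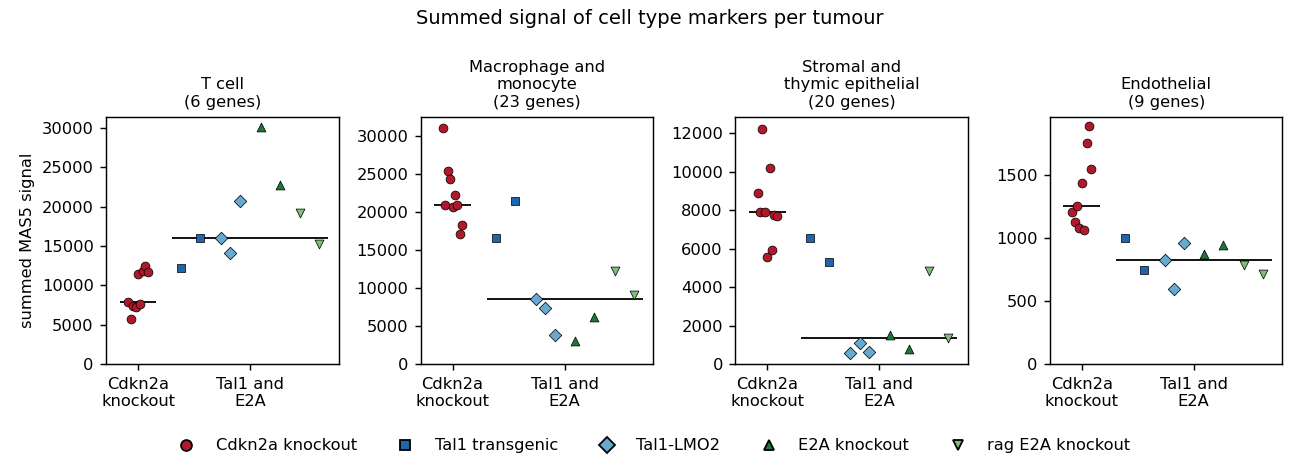
Summed MAS5 signal (linear axes from 0) of marker genes of T cells, macrophages and monocytes, stroma and thymic epithelium, and endothelium in each tumour; horizontal lines are arm medians. Macrophage sums are 17127 to 31039 in *Cdkn2a* knockout tumours, and the Tal1 transgenic tumours, at 16510 and 21477, are the nearest of the others.

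Several of the largest single differences were in such genes. The 12 largest called rises included the matrix genes *Col3a1* (3.10 ± 0.51, adjusted p = 0.000115), *Col4a1* (3.08 ± 0.41, adjusted p = 1.86e-05) *Col4a2* (2.78 ± 0.38, adjusted p = 2.06e-05) and *Sparc* (3.04 ± 0.71, adjusted p = 0.00202), and the pericyte regulator *Rgs5* (3.41 ± 0.42, adjusted p = 9.2e-06). The largest was *Wwc1*, a scaffold of the Hippo pathway, which read 36.5 to 2078 against 4.10 to 99.4 (3.57 ± 0.61, adjusted p = 0.000161). *Lysmd2* read 88.9 to 344 against 1.06 to 29.1 with no overlap (2.90 ± 0.27, adjusted p = 7.12e-07), and *Sh3bgrl2* 24.9 to 1080 against 4.49 to 19.8 (3.37 ± 0.61, adjusted p = 0.000264). The others were *Igfbp7* (3.23), the actin-binding *Rai14* (3.06), the lipid carrier *Fabp4* (2.96) and *Fgf13* (2.80). All second-arm signals of *Lysmd2*, *Sh3bgrl2* and *Rai14* lay below their array medians. These genes entered the test through the *Cdkn2a* knockout arm alone and were bound to differ.

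Of the 12 largest falls, 5 were *Notch1*, *Notch3*, *Dtx1*, *Il2ra* and *Dntt*. The largest was *Gdpd3*, which encodes a glycerophosphodiester phosphodiesterase: it read 6.56 to 38.1 in the *Cdkn2a* knockout arm against 57.2 to 3554 (−4.62 ± 0.54, adjusted p = 6.21e-06), with no overlap. *Scara3*, a scavenger receptor gene, was 2.31 to 46.3 against 36.1 to 1220 (−3.30 ± 0.52, adjusted p = 7.11e-05). In the *Cdkn2a* knockout arm, *Gdpd3* and *Scara3* lay below every array median. Both entered the test through the second arm alone and were bound to differ. *Ly6d*, a surface gene of early lymphoid cells, read 13.0 to 434 in 8 *Cdkn2a* knockout tumours and 4440 in tumour 7, against 199 to 7323 (−3.62 ± 0.88, adjusted p = 0.00289). Tumour 7 thus lay inside the range of the second arm in *Ly6d* as in *Dtx1* and *Ptcra*. It was not alone in 2 of these genes. In *Ly6d* tumour 5 (434) also lay inside that range. In *Ptcra* tumours 3, 4, 5 and 9 did, above Tal1-LMO2 tumour 2 only (25.6).

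Genes that differ between mouse strains were among the largest as well, and the labels do not give the strain. *Ifi202b*, an interferon-inducible gene, read 17.1 to 48.9 in 8 *Cdkn2a* knockout tumours and 362 in tumour 7, against 98.6 to 1683 (−3.42 ± 0.46, adjusted p = 2.05e-05). The related *Ifi204* read 9.14 to 26.9 in 8 and 207 in tumour 9, against 94.0 to 981 (−3.18 ± 0.42, adjusted p = 1.72e-05). *H2-T3*, a non-classical class I histocompatibility gene, read 75.2 to 1599 against 429 to 3854 (−3.15 ± 0.49, adjusted p = 7.1e-05), with tumour 7 highest. Of 16 tested genes on this list, 6 were lower (37.5%, against 18.9% of all genes) and 3 higher (18.8%, against 21.9%). *AI506816*, high in all 18 tumours by the choice of arms, read 659 to 1117 against 493 to 1007 and was not called (0.29 ± 0.14, adjusted p = 0.09).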

How the data were processed

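Per the labels' protocols, Trizol-extracted total RNA was biotin-labelled for Affymetrix arrays. The values that the authors deposited are MAS5 signals, a linear intensity per probe set and array; the submitters' processing notes name MAS5, with no version or scaling target. Trimmed means with 2% cut from each end were 250.084 to 250.129, so arrays were already scaled, which does not equalize medians. Of 22690 probe sets, 20380 have 1 symbol in the platform table, 691 several and 1555 none; the first kind was used, and 64 controls were kept apart.

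Values were log2(signal + 15.9), 15.9 being the 25th percentile of all signals. Probe sets above the array median in at least 4 of 18 arrays were kept, and the one of highest mean stood for its gene (7392 of 12393 genes). limma 3.58.1 in R 4.3.3 (lmFit, eBayes with trend) fitted 2 means, and 3 means for the Tal1-driven and E2A-deficient comparisons, with Benjamini-Hochberg adjustment over all tested genes and calls at an adjusted p under 0.05. The fit was tested on simulated data. Quality measures were compared with exact permutation tests (SciPy 1.17.1). The number of arrays limits the precision. Alternatives were other pseudocounts, filters, probe sets, scalings, variance models and blocks, and fits without arrays or backgrounds; 1 of them, without *Cdkn2a* knockout tumours 7 and 8, was chosen after seeing the data.

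The arms, gene lists and rule for named genes were chosen with earlier results of these data known. Named are the 12 largest called differences each way whose higher arm exceeds the mean array median, 17 fixed genes, up to 8 called genes of lowest p from each of 8 T-cell, Notch and cancer gene lists and up to 4 from each other list, and the 3 largest differences between the Tal1-driven and E2A-deficient effects among them; other genes in the text were named after their values were seen. Promoters are RefSeq's (GRCm38.p6).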

Additional observations from a re-analysis of the deposited data

Results flagged for a closer look

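Among the 9 *Cdkn2a* knockout tumours, 23 measures had 1 tumour far from the other 8, by Dixon's criterion at the 95% level. Chance alone flags about 1 in 20 groups. The number of measures examined is not given here, so the 23 cannot be set against that rate. No explanation was weighed.

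Tumour 7 stood apart in 5 genes. It was highest for *Notch1* (1537, the others 42.1 to 246), *Dtx1* (2175, the others 47.04 to 133), *Ptcra* (486, the others 4.40 to 39.5) and *Ifi202b* (362, the others 17.1 to 48.9), and lowest for *Gfi1* (354, the others 857 to 1630). In *Dtx1*, *Ptcra*, *Ifi202b* and *Gfi1* its signal lay inside the range of the Tal1 and E2A tumours.

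Tumour 8 stood apart in 12 genes. It was lowest for *Bcl11b* (226), *Rag1* (12.8), *Tcf12* (962), *Tcf3* (339), *Cdk4* (890), *Rbl1* (438), *Mcm7* (2793) and *Nuf2* (175), which take in T-cell factors, the recombinase and cell cycle genes. It was highest for *Zbtb7b* (272), the heme synthesis gene *Fech* (586) and *Tpd52* (413). It was also highest for the endothelial gene *Plvap* (201).

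Tumour 2 was lowest for *Cd24a* (241.5) and highest for *Jup* (2191), which encodes plakoglobin; the others ran from 183 to 447 for *Jup*. Tumour 3 was highest for *Ddx21* (1266) and tumour 9 for *Ifi204* (207). Tumour 6 had the highest log2 3'/5' ratios, −0.166 for *Gapdh* (the others −0.437 to −0.321) and 0.243 for *Actb* (the others 0.113 to 0.14).

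The effects against Tal1-driven and E2A-deficient tumours differed, by the limma test of that difference, for *Aldh1b1* (−3.54, from −2.15 and −5.69) and *Tcf3* (1.504, from −0.25 and 1.26). Both calls were lost without the E2A knockout tumours (adjusted p = 0.122 and 0.0827) and without the rag E2A knockout tumours (0.371 and 0.0523), and neither was kept under the replicate block.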

How the results depend on the processing

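Calls of named genes were recomputed under 36 alternatives. Of 144 genes named by the rule, 141 were tested and 137 called; 78 kept their call in every alternative that tested them, 57 lost it in at least 1 without a change of sign, and 3 changed sign; *Eif5a* did both and is in both counts. After quantile normalization *Rpl4* gave 0.15 (adjusted p = 0.0182), *Rpl19* 0.06 and *Eif5a* 0.05, against falls as deposited; *Rag2*, not called, gave 0.06 without *Cdkn2a* knockout tumours 7 and 8. *Bcl6* lost its call in 21, *Id3* in 20, *Zbtb7b* in 17 and *Fech* in 9. The cause was not tested.

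Without a filter, which tests more genes, 4877 genes were called in the main comparison, 3595 against Tal1-driven and 3476 against E2A-deficient tumours. Fewer samples gave 1210 against Tal1-driven tumours without the Tal1-LMO2 ones, and against E2A-deficient tumours 1023 without the E2A knockout and 1385 without the rag E2A knockout tumours. Leaving out each array in turn gave 2775 to 3137, 1961 to 2481 and 1677 to 2396 calls, differences of 18.33 to 21.93 in array median, −0.2734 to −0.1925 for the *Gapdh* ratio and −0.2436 to −0.123 for *Actb*.

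Title numbers do not pair the tumours: deviations of tumours with the same number correlated at −0.29 to 0.26 (median −0.05, 21 pairs). With the number as a replicate block, 1324, 970 and 817 genes were called, and limma called 0 for the difference between the effects (490 at an unadjusted p under 0.05). With background as a random block (consensus correlation 0.07) the main count was 2336. The labels give no hybridization batch.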

Other observations

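Of 24 tested interferon-related genes, 6 were lower in *Cdkn2a* knockout tumours (25%, near the 18.9% of all genes), among them the GTPase *Ifi47* (−2.39 ± 0.42, limma adjusted p = 0.000197) and the immunoproteasome gene *Psmb9* (−1.17 ± 0.28, limma adjusted p = 0.00279). In the other direction 3 were higher (12.5%, against 21.9%), with no overlap for the GTPase *Iigp1* (72.9 to 158 against 19.8 to 65.1) and *Oasl1* (50.1 to 156 against 25.3 to 43.8). Of 19 tested immediate early genes, 9 were higher (47.4%, against 21.9% of all genes) and 10 not called, such as *Junb* (0.83 ± 0.17) and the NF-kB inhibitor *Tnfaip3* (1.03 ± 0.22); after quantile normalization 7 were higher. Of 29 tested cytokine receptor and JAK-STAT genes, 7 were higher (24.1%) and 4 lower (13.8%), near the shares of all genes. *Il10rb* (134 to 261 against 77.0 to 128) did not overlap, and *Il4ra* was higher by 1.54 ± 0.30.

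Among 19 tested BCL2 family and cell death genes, 5 were higher (26.3%, near the 21.9% of all genes) and 2 lower (10.5%, against 18.9%). After quantile normalization 5 were higher and 5 lower. The death-promoting genes *Bbc3*, which encodes PUMA (128 to 415 against 45.9 to 176), and *Bik* (83.5 to 187 against 13.0 to 99.3) were higher by 1.25 ± 0.28 and 1.08 ± 0.23, and *Bak1* was lower (−0.53 ± 0.14, other probe set of opposite sign). *Cdkn1a*, an inhibitor of cyclin-dependent kinases named after its value was seen, was higher by 1.24 ± 0.46 (limma adjusted p = 0.0374).

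*Xist*, the RNA of the inactive X chromosome, exceeded the array median in 8 of 9 *Cdkn2a* knockout and 5 of 9 other tumours, and the Y-linked *Eif2s3y* in 1 of 9 and 4 of 9.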
